A study of Homo sapiens with 36 samples.

Results

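The insulin-like growth factor (IGF) system was followed in prostate cancer (PCa) cells through 10 genes chosen by name: the ligands IGF1 and IGF2, the receptor IGF1R, the binding proteins IGFBP2, IGFBP3, IGFBP4, IGFBP5 and IGFBP6, and the receptor substrates IRS1 and IRS2. All 10 were found among the 27852 genes with a symbol in the table. The 36 libraries came from 4 human PCa cell lines, of which C4-2 and C4-2B represent osteoblastic PCa (BPCa) and DU145 and 22Rv1 osteolytic PCa (LPCa). C4-2B was itself derived from C4-2, so each phenotype is represented by 2 established lines and the BPCa lines are close relatives. Each line was kept for 5 days in 1 of 4 cultures in the NICO-1 horizontal system, in which a filter separates the PCa cells from a partner: mono-culture (3 libraries per line), co-culture with MG63 cells, mono-culture with receptor activator of NF-κB ligand (RANKL, 50 ng/mL), and co-culture with RAW264.7 cells in the same dose of RANKL (2 libraries per line each). The MG63 line comes from a human osteosarcoma and stands in for osteoblasts, while the murine monocytic line RAW264.7 supplies osteoclast precursors. RANKL was thus present in both arms of the RAW264.7 comparison and in neither arm of the MG63 comparison.

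The plain mono-cultures held 23932472 to 36719047 counts each, and the remaining libraries 9593426 to 15418211. The 2 libraries of DU145 with MG63 cells stood apart from each other, with a Pearson r of 0.953 over genes against 0.989 to 0.996 in the other 23 pairs of replicates, so named differences that rest on them are also given without each. Epithelial markers were abundant in every library (summed levels of 672 to 1962 CPM, counts scaled to a library total of 1000000). Prostate luminal markers reached 4853 to 8649 CPM in C4-2 and C4-2B and 981 to 1209 CPM in 22Rv1 but only 27.7 to 35.4 CPM in DU145. The 13 mesenchymal markers summed to 15.2 to 20.3 CPM in DU145 with MG63 cells against 11.3 to 13.9 CPM in its mono-culture, and to 27.8 to 28.1 CPM against 21.3 to 26.0 CPM in 22Rv1; the part of this in the results for those lines was not tested. In C4-2 and C4-2B they summed to 7.14 to 11.4 CPM with MG63 cells and 9.40 to 11.4 CPM in mono-culture, and 0 to 4 of the 13 were at 0 in any library.

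IGF1 and IGF2 are secreted peptides that bind the receptor tyrosine kinase IGF1R, which passes the signal through the adaptor proteins IRS1 and IRS2 to the PI3K/AKT cascade. The binding proteins hold the ligands outside the cell, where they can prolong ligand life or keep it from the receptor, and IGFBP3 is the main carrier in the circulation. Bone matrix is a large store of IGFs, and the system has long been studied in the growth of PCa cells in bone.

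The genes are given on GRCh38 with GENCODE 29. IGF1 lies at chr12:102395874-102481744 on the minus strand, IGF2 at chr11:2129112-2149603 (minus), IGF1R at chr15:98648539-98964530 (plus) and IGFBP3 at chr7:45912245-45921874 (minus). IGFBP2 at chr2:216632828-216664436 (plus) and IGFBP5 at chr2:216672105-216695525 (minus) are neighbours. IGFBP4 lies at chr17:40443461-40457731 (plus), IGFBP6 at chr12:53097436-53102345 (plus), IRS1 at chr2:226731317-226799759 (minus) and IRS2 at chr13:109752698-109786568 (minus). Each level is a sum over all transcripts of the gene in the table. For IGF1R these were 15 transcripts of 303 to 2280 bases, and the longest coding one had 1034 bases against 12235 for the longest in the annotation. The 4 annotated coding transcripts above 10 kb, the shortest of 11726 bases, were not among them. Only 1.31% of 12611 coding genes were covered by under 50% of their longest coding transcript, so the IGF1R sums below describe short transcripts and cannot be read as the level of full-length receptor mRNA. The share was 96.3% for IGFBP3 and 100% for the other 8 members.

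Promoters are shown for 3 members with differences between cultures, a ligand, a binding protein and an adaptor, as the 250 bases before the transcription start in RefSeq on GRCh38.p14, written 5′ to 3′ on the gene's strand. The windows are chr12:102481748-102481997 for IGF1, chr7:45921273-45921522 for IGFBP3 and chr13:109786584-109786833 for IRS2, all on the minus strand. Capitals mark the letters searched on both strands.
IGF1: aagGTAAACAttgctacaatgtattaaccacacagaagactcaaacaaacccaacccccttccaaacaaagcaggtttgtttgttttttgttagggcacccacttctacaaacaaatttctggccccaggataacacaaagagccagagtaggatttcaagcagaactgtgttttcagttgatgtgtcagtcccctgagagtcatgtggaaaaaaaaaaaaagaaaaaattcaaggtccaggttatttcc
IGFBP3: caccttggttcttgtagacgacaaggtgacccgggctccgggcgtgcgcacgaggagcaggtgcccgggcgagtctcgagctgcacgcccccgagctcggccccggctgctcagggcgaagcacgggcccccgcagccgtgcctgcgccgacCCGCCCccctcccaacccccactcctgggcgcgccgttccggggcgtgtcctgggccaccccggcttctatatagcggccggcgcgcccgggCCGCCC
IRS2: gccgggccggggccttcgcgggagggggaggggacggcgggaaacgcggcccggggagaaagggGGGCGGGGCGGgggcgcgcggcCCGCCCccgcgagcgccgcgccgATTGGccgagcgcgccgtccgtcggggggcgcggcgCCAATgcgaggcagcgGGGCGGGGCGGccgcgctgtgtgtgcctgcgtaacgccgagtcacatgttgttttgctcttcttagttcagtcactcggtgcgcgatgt
The IGF1 window had a GC content of 39.6% and held 1 forkhead core (TGTTTAC, read on the opposite strand, at -247). The IGFBP3 window had 76.0% GC and held 2 GC boxes (GGGCGG, opposite strand, at -98 and -6). The IRS2 window had 76.4% GC with 5 GC boxes, of which 4 overlap in pairs by 1 base, and 2 CCAAT boxes (at -141 and -105). Of 35116 promoter windows of this length, 2.98% hold the forkhead core, 42.6% a GC box and 32.0% a CCAAT box. TATAAA (10.7% of windows), the AP-1 letters TGANTCA (6.57%) and the androgen receptor core AGAACA (12.4%) were in none of the 3. A match describes letters only.

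In mono-culture the lines carried different sets of IGF genes. IGF1, the ligand, was present in C4-2, C4-2B and 22Rv1 and nearly absent from DU145, while IGFBP4 and IGFBP6 were abundant in DU145 alone. IGF1 measured 39.0, 38.5 and 39.1 CPM in C4-2, 38.7, 41.9 and 34.9 in C4-2B, 23.7, 26.1 and 29.3 in 22Rv1, and 0.192, 0.384 and 0.201 in DU145. IGF2, the other ligand, stayed at or under 0.673 CPM in all 36 libraries and did not reach the 100 counts asked for by the filter in any. The mono-culture libraries of C4-2 and C4-2B overlapped for IGF1 (log2 difference 0.03, SE 0.10, adjusted p = 0.902 by edgeR's quasi-likelihood test), whereas 22Rv1 was lower than C4-2 by 0.61 on the log2 scale (adjusted p = 3.92e-05, edgeR).

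IGFBP4, a carrier that inhibits IGF action in most settings, ranged from 141 to 156 CPM in the 3 mono-culture libraries of DU145, and no library of another line exceeded 0.410 CPM. IGFBP6, which prefers IGF2 as ligand, measured 38.3, 37.3 and 36.2 CPM in DU145 and at most 0.787 CPM elsewhere. Both passed the filter on low counts only through DU145, so their differences between lines are given as levels. IGFBP5 was low throughout, with 1.70, 1.91 and 2.14 CPM in 22Rv1 mono-culture as its highest group and at most 0.445 CPM in the other 3 lines.

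**Figure D1:**
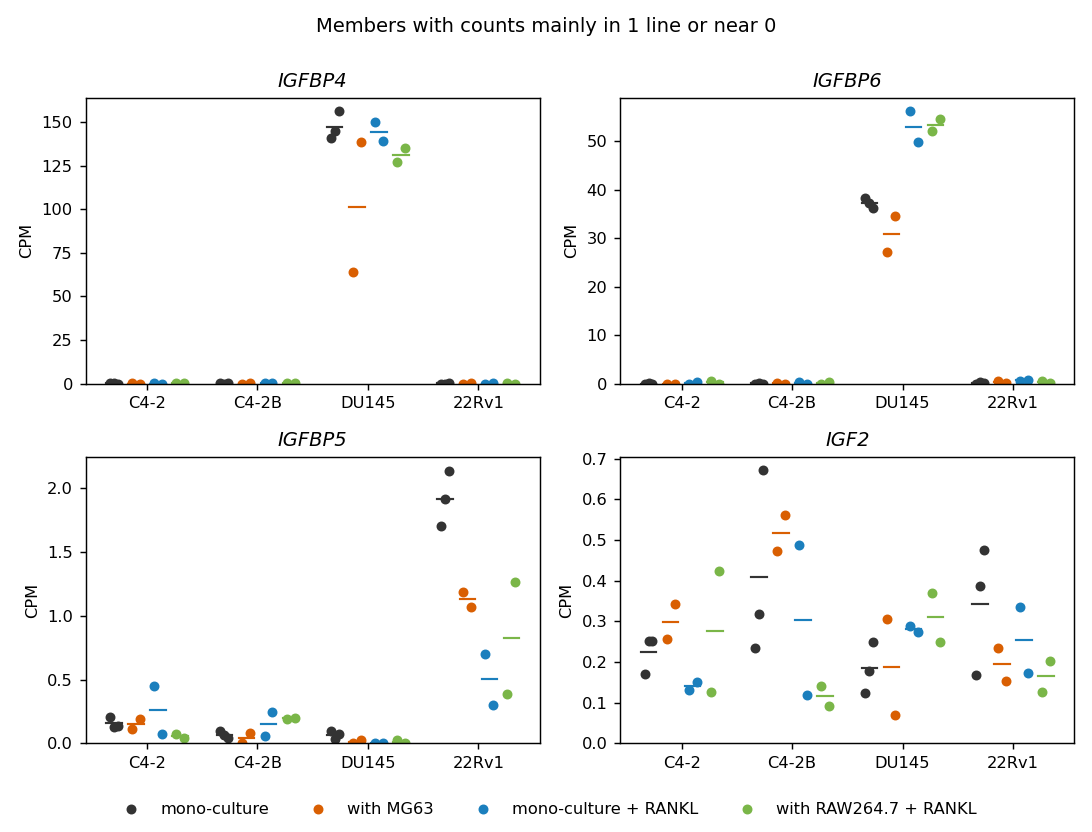
Levels in CPM (y axis) of IGFBP4, IGFBP6, IGFBP5 and IGF2 in each of the 36 libraries (points), by line and culture (x axis), with short bars at group means. IGFBP4 and IGFBP6 exceed 1 CPM in DU145 only, and IGF2 reaches no more than 0.673 CPM in any library.

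IGFBP2 and IGFBP3 were found in every line. IGFBP2, a carrier common in epithelial tumours, averaged 274 ± 12.5 CPM in 22Rv1, 196 ± 3.24 in C4-2B, 177 ± 4.87 in C4-2 and 16.2 ± 0.194 in DU145 (SD, n = 3 each). DU145 lay below C4-2 by 3.48 and below C4-2B by 3.67 on the log2 scale. The 22Rv1 level passed the test against C4-2 (0.58, adjusted p = 0.0122, edgeR) but not against C4-2B (0.38, adjusted p = 0.0794, edgeR). Whether the latter difference passed depended on the DU145 MG63 libraries. Those libraries enter because all groups of the fit share an estimate of spread. IGFBP3 averaged 330 ± 25.4 CPM in 22Rv1, 99.6 ± 4.80 in C4-2B, 78.5 ± 3.63 in DU145 and 41.2 ± 2.68 in C4-2 (SD, n = 3). It differed between every pair of lines, from 0.42 (C4-2B over DU145) to 2.95 (22Rv1 over C4-2) on the log2 scale.

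The adaptors split by line as well. IRS1 was highest in C4-2B (9.97, 9.33 and 10.9 CPM), above C4-2 (5.19, 4.62 and 5.19 CPM) by 1.05 on the log2 scale (SE 0.17, adjusted p = 0.000577, edgeR). The 3 lower lines did not pass the test among themselves (adjusted p = 0.117 for DU145 against C4-2, 0.330 for 22Rv1 against C4-2 and 0.562 for 22Rv1 against DU145, edgeR), although DU145 against C4-2 passed without DU145 MG63 replicate 1 (0.0151) or 2 (0.0146). IRS2 was high in the LPCa lines, with 20.8, 20.5 and 20.6 CPM in 22Rv1 and 14.9, 14.6 and 15.7 in DU145, against 1.25 to 1.56 in C4-2 and 0.918 to 1.13 in C4-2B. IRS2 passed the filter only through DU145 and 22Rv1, which differed by 0.44 on the log2 scale (adjusted p = 0.00148, edgeR). Short IGF1R transcripts measured 4.75 to 11.3 CPM in C4-2, 8.56 to 12.9 in C4-2B, 2.59 to 3.74 in DU145 and 0.866 to 1.79 in 22Rv1. Over the 8 members tested and 6 pairs of lines, 35 of 48 differences passed, against a background of 65.9% over all genes. C4-2B against C4-2, the related pair, gave 2 of 8 (background 13.6%). DU145 gave 7 against C4-2 (78.3%) and 8 against C4-2B (79.0%), and 22Rv1 gave 6 against C4-2 (72.0%), 5 against C4-2B (72.5%) and 7 against DU145 (79.6%). Members that passed the filter through some lines only are among these, so the counts are a description.

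**Figure D2:**
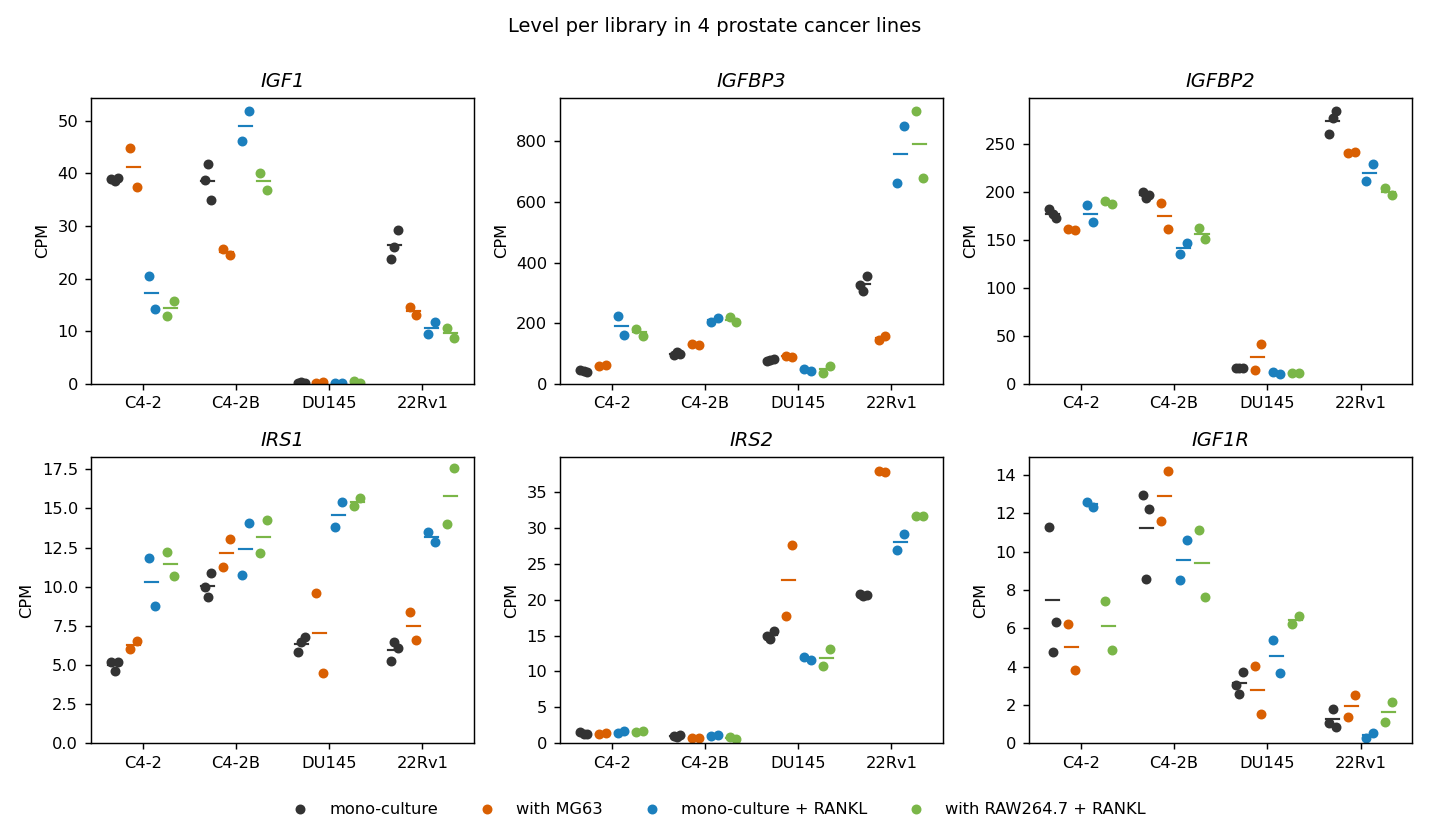
Levels in CPM (y axis) of IGF1, IGFBP3, IGFBP2, IRS1, IRS2 and IGF1R in each of the 36 libraries (points), by line and culture (x axis), with short bars at group means. IGFBP3 in C4-2 moves from 38.8 to 44.1 CPM in mono-culture to 222 and 162 CPM in mono-culture with RANKL, and IGF1 in the same line from 38.5 to 39.1 CPM to 20.4 and 14.1 CPM.

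On the length-scaled TPM scale, on which genes can be compared, IGFBP2 led the members in mono-cultured C4-2 (182 TPM, before IGF1 with 32.0), C4-2B (202 TPM, before IGFBP3 with 53.0) and 22Rv1 (269 TPM, before IGFBP3 with 175). In DU145 the order was IGFBP4 (68.7 TPM), IGFBP6 (45.5), IGFBP3 (37.6) and IGFBP2 (16.5). The 5 binding proteins together came to 445 TPM in 22Rv1, 255 in C4-2B, 204 in C4-2 and 168 in DU145. IGFBP3 made up 10.5 to 11.2% of that sum in the C4-2 mono-culture libraries and 40.7 to 43.3% in the libraries with RANKL. In 22Rv1 its share was 36.9 to 41.8% in mono-culture, 24.0 to 26.9% with MG63 cells, 62.6 to 65.6% with RANKL and 69.5 to 70.9% with RAW264.7 cells and RANKL. In DU145 the share ran the other way with RANKL, from 21.8 to 23.0% to 12.7 to 12.9%.

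**Figure D3:**
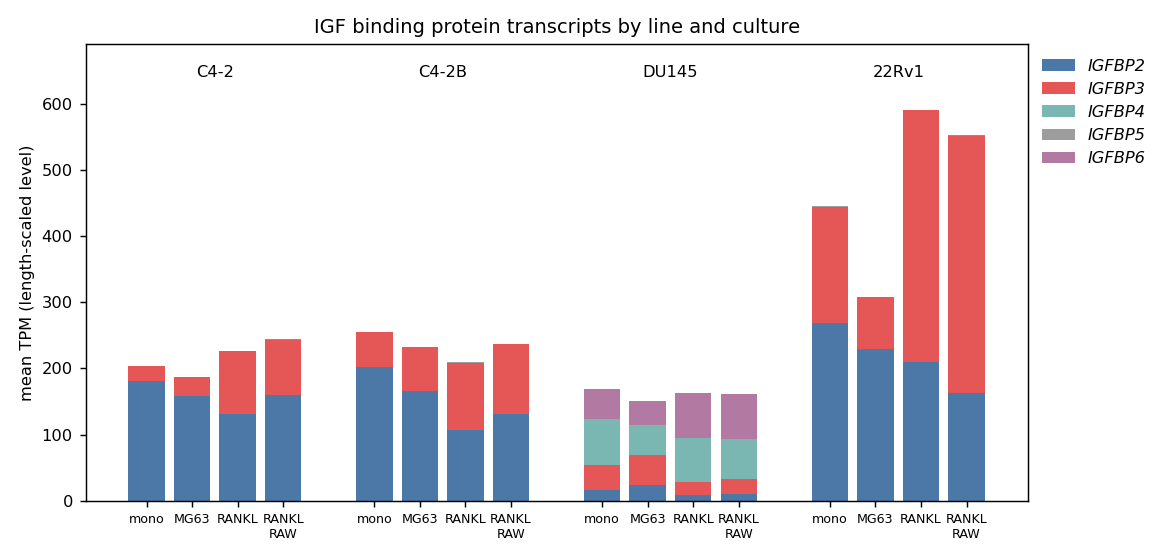
Mean TPM (y axis) of IGFBP2 to IGFBP6 stacked for each line and culture (x axis). IGFBP2 is the largest segment in mono-culture in C4-2, C4-2B and 22Rv1, IGFBP4 in DU145, and the IGFBP3 segment is the largest in 22Rv1 with RANKL (64.1% of the sum) and with RAW264.7 cells (70.2%).

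Co-culture with MG63 cells was set against plain mono-culture to ask how PCa cells differ beside osteoblast-like neighbours. IGFBP3 was higher in C4-2, C4-2B and DU145 and lower in 22Rv1, IGF1 was lower in C4-2B and 22Rv1, and IRS2 was higher in both LPCa lines. Of the 8 members tested, 1 passed in C4-2, 2 in C4-2B, 3 in DU145 and 3 in 22Rv1, against backgrounds of 10.1%, 7.41%, 30.5% and 20.4% of all genes. In all, 9 of 32 results passed (background 17.1%), of which 6 were higher (background 8.81%) and 3 lower (8.28%), and the members' median log2 fold changes were 0.01, 0.08, 0.26 and 0.41 beside -0.01, -0.00, -0.06 and 0.00 for all genes. The RANKL mono-cultures, which lack the partner cells too, were used as the alternative control and share the MG63 libraries with this comparison. Depth differs along with MG63 cells, with a median of 31454201 counts in plain mono-culture and 13857467 with MG63 cells. With the mono-cultures thinned to the depth of the others, all 22 member calls for MG63, RANKL and the phenotypes stayed. Anything else that differed between the plain mono-cultures and the MG63 cultures cannot be told apart from MG63 cells. The 7 luminal markers summed to 5957 to 6122 CPM with MG63 cells against 7313 to 7558 CPM in C4-2, and to 6157 to 6459 against 8233 to 8649 CPM in C4-2B. They came to 1187 to 1209 against 1078 to 1160 CPM in 22Rv1 and to 35.1 to 35.4 against 29.2 to 33.0 CPM in DU145. The 4 epithelial markers summed to 911 to 954 against 672 to 688 CPM in 22Rv1, 1027 to 1038 against 963 to 1004 in C4-2, 911 to 964 against 882 to 946 in C4-2B, and 868 and 1465 against 1053 to 1082 in DU145. None of the 11 was at 0 in any library, and their part in the results was not tested.

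IGFBP3 measured 58.4 and 60.8 CPM in C4-2 with MG63 cells against 44.1, 40.7 and 38.8 without, a log2 fold change of 0.64 (SE 0.08, adjusted p = 9.71e-05, edgeR). In C4-2B it measured 131 and 126 against 95.6, 105 and 98.2 CPM (0.43, SE 0.08, adjusted p = 0.00346, edgeR). In DU145 it measured 90.7 and 89.4 against 74.9, 78.4 and 82.2 CPM (0.27, SE 0.08, adjusted p = 0.0208, edgeR). In 22Rv1 it fell to 144 and 159 from 326, 307 and 357 CPM (-1.01, SE 0.08, adjusted p = 9.09e-07, edgeR). The libraries of the cultures did not overlap in any of the 4 lines, as held for 59.3% of genes in C4-2, 50.6% in C4-2B, 46.8% in DU145 and 61.2% in 22Rv1.

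The direction in the BPCa lines depended on the control. Against the RANKL mono-cultures, in which IGFBP3 itself was high, the C4-2 difference was -1.67 (SE 0.15, adjusted p = 6.93e-05, edgeR) and the C4-2B difference -0.73 (adjusted p = 0.0217, edgeR). In DU145 it was 1.00 (adjusted p = 0.00119) and in 22Rv1 -2.25 (adjusted p = 1.96e-05), the same directions as before. Backgrounds under that control were 4.70%, 3.03%, 22.8% and 7.70%. The C4-2B call was also lost without MG63 replicate 1 (adjusted p = 0.0602) and with all 36 samples in 1 fit (0.0660). In DU145 the difference was 0.25 without MG63 replicate 1 (adjusted p = 0.0490) and 0.29 without replicate 2 (0.0631). The DU145 call was also lost without mono-culture replicate 1 (0.0549), with scaling by library size (0.0536), without a filter (0.110) and with all 36 samples (0.106).

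IGF1 was lower in C4-2B with MG63 cells (25.6 and 24.6 CPM) than without (38.7, 41.9 and 34.9 CPM), by 0.56 on the log2 scale (SE 0.12, adjusted p = 0.00754, edgeR). It was also lower in 22Rv1 (14.7 and 13.1 against 23.7, 26.1 and 29.3 CPM; -0.81, SE 0.12, adjusted p = 0.000301, edgeR). In C4-2 the libraries overlapped, with 44.8 and 37.5 against 38.5 to 39.1 CPM (0.19, adjusted p = 0.329, edgeR). DU145 stayed at or under 0.396 CPM. Against the RANKL mono-cultures the C4-2B difference was -0.99 (adjusted p = 0.00847), while the C4-2 difference was 1.26 (adjusted p = 0.00148) and that in 22Rv1 0.46 (adjusted p = 0.190), the opposite sign to the first control. The C4-2B call was lost without either of its MG63 libraries (adjusted p = 0.0658 and 0.0886).

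IRS2 rose in the LPCa lines. In 22Rv1 it measured 38.0 and 37.8 CPM against 20.8, 20.5 and 20.6 (0.98, SE 0.12, adjusted p = 3.53e-05, edgeR), and against the RANKL control the difference was 0.50 (adjusted p = 0.0903). In DU145 it measured 17.7 and 27.6 CPM against 14.9, 14.6 and 15.7 (0.65, SE 0.13, adjusted p = 0.00173), or 0.94 without replicate 1 (adjusted p = 2.27e-07) and 0.31 without replicate 2 (adjusted p = 0.0375). Under the RANKL control DU145 gave 0.94 (adjusted p = 0.00340). C4-2 and C4-2B gave 0.06 and -0.36 (adjusted p = 0.935 and 0.588) from levels at or under 1.56 CPM.

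IGFBP2 passed in DU145 alone, where the result rests on 1 library: 14.5 and 40.9 CPM with MG63 cells against 16.5, 16.2 and 16.1 without (0.82, SE 0.24, adjusted p = 0.0178, edgeR). Without replicate 1 the difference was 1.39 (adjusted p = 6.76e-09), and without replicate 2 it was -0.081 (adjusted p = 0.726). IGFBP4 in the same cultures measured 64.1 and 139 CPM against 141 to 156 (-0.48, adjusted p = 0.128, edgeR), or -0.02 without replicate 1 (adjusted p = 0.888) and -1.12 without replicate 2 (adjusted p = 9.06e-05). IGFBP6 measured 27.2 and 34.7 against 36.2 to 38.3 CPM (-0.20, adjusted p = 0.584, edgeR), or -0.042 without replicate 1 (adjusted p = 0.915) and -0.38 without replicate 2 (0.420). In the other 3 lines IGFBP2 did not pass, with 161 and 160 against 172 to 182 CPM in C4-2, 188 and 161 against 193 to 200 CPM in C4-2B and 240 and 241 against 260 to 284 CPM in 22Rv1.

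IRS1 had positive log2 fold changes of 0.45 in C4-2, 0.33 in C4-2B, 0.25 in DU145 and 0.44 in 22Rv1, none of which passed (adjusted p = 0.218, 0.363, 0.390 and 0.158, edgeR). Without DU145 MG63 replicate 1 the C4-2 and 22Rv1 values passed (adjusted p = 0.0249 and 0.0164), as they did without replicate 2 (0.0243 and 0.0160). DU145 itself gave -0.43 without replicate 1 (adjusted p = 0.0807), 0.68 without replicate 2 (adjusted p = 0.00997), and -1.03 under the RANKL control (adjusted p = 0.0241). Under that control IRS1 was also negative in C4-2 (-0.69, adjusted p = 0.243), C4-2B (-0.06, adjusted p = 0.973) and 22Rv1 (-0.75, adjusted p = 0.145). Short IGF1R transcripts passed in no line (smallest adjusted p = 0.351, edgeR). At the thresholds the study used, a fold above 2 with an unadjusted p under 0.05, the count over members and lines was 1, IGFBP3 in 22Rv1 (background 3.04%).

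**Figure D4:**
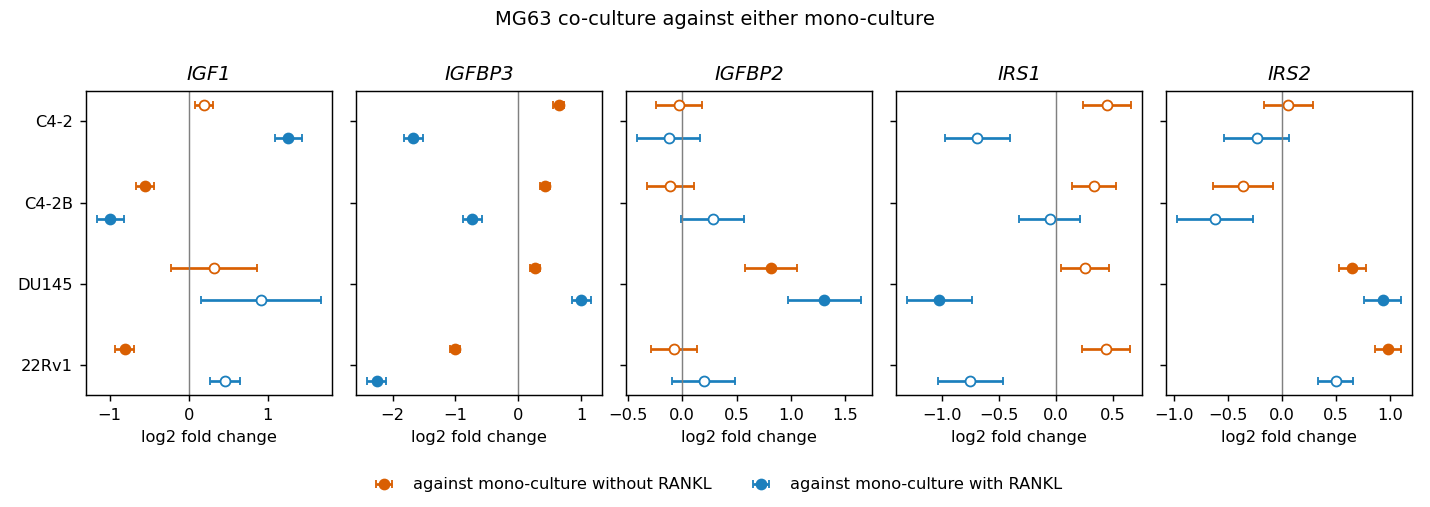
Log2 fold change (x axis, with its standard error) of IGF1, IGFBP3, IGFBP2, IRS1 and IRS2 with MG63 cells against mono-culture and against RANKL mono-culture, by line (y axis). Filled points have an adjusted p under 0.05, the x axes differ between panels, and the IGFBP3 points of C4-2 lie on opposite sides of 0 (0.64 and -1.67).

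The MG63 effects differed between the phenotypes for 2 of 8 members (background 9.85%). The mean effect in C4-2 and C4-2B minus the mean effect in DU145 and 22Rv1 was 0.91 for IGFBP3 (SE 0.08, adjusted p = 1.16e-05, edgeR) and -0.97 for IRS2 (SE 0.20, adjusted p = 0.00683, edgeR). IRS2 entered the fit only through DU145 and 22Rv1. Its libraries in C4-2 and C4-2B held at most 52.4 counts in these cultures, and those of C4-2B with MG63 cells 9.61 and 10.8, so its values across lines are a description here and in the tests below. Within LPCa, IGFBP3 went up in DU145 and down in 22Rv1, so its mean over the phenotype describes neither line. The difference for IGFBP3 was 0.92 without DU145 MG63 replicate 1 and 0.90 without replicate 2, and for IRS2 -1.11 and -0.80. Against the RANKL control IGFBP3 gave -0.58 (adjusted p = 0.0350), the opposite sign, and IRS2 -1.14 (adjusted p = 0.0199; background 8.71%). IGFBP2 passed only without DU145 MG63 replicate 1 (-0.73, adjusted p = 4.86e-07). A test of any difference among the 4 lines, chosen after seeing the data, passed for IGFBP3 (adjusted p = 2.04e-06), IGF1 (0.00319) and IRS2 (0.0127), or 3 of 8 (background 14.5%). IGF1 entered the fit through the other 3 lines, and DU145 held 2.99 to 11.5 counts of it in these cultures, so its result across the 4 lines is a description too. At the study's thresholds 0 of the 8 differences between phenotypes passed (background 2.68%).

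RANKL mono-cultures were then set against plain mono-cultures, which also served as the control for MG63. IGFBP3 was higher in C4-2, C4-2B and 22Rv1 and lower in DU145, IGF1 was lower in C4-2 and 22Rv1, and IRS1 was higher in C4-2, DU145 and 22Rv1. Of 32 results 11 passed (background 20.7%), 8 of them higher (background 10.3%) and 3 lower (10.5%), as 3 of 8 in C4-2, 2 in C4-2B, 2 in DU145 and 4 in 22Rv1 (backgrounds 18.3%, 14.4%, 32.5% and 17.7%). The median log2 fold changes of the members were 0.55, 0.31, -0.09 and 0.09, beside -0.02, -0.02, -0.01 and -0.01 for all genes. Depth differs along with RANKL, since the plain mono-cultures held 2.46 times the median counts of the others. With those libraries thinned to the depth of the others, 11 of 32 passed. With RANKL the luminal markers summed to 6078 to 6203 CPM in C4-2, 5264 to 5339 in C4-2B, 996 to 998 in 22Rv1 and 27.7 to 30.7 in DU145, against 7313 to 7558, 8233 to 8649, 1078 to 1160 and 29.2 to 33.0 CPM in mono-culture. The epithelial markers summed to 1780 to 1786 against 1053 to 1082 CPM in DU145 and to 862 to 906 against 672 to 688 CPM in 22Rv1, while they came to 900 to 920 against 963 to 1004 CPM in C4-2 and 932 to 954 against 882 to 946 CPM in C4-2B. Their part in the results was not tested. Anything else that differed between the cultures with and without RANKL cannot be told apart from RANKL.

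IGFBP3 measured 222 and 162 CPM in C4-2 with RANKL against 44.1, 40.7 and 38.8 without, a 4.96-fold level (log2 2.31, SE 0.15, adjusted p = 3.81e-11, edgeR). In C4-2B it measured 204 and 216 against 95.6, 105 and 98.2 CPM (1.16, SE 0.14, adjusted p = 3.4e-06, edgeR), and in 22Rv1 663 and 852 against 326, 307 and 357 CPM (1.23, SE 0.14, adjusted p = 8.48e-07, edgeR). In DU145 it fell to 44.8 ± 3.69 CPM (SD, n = 2) from 74.9, 78.4 and 82.2 CPM (-0.70, SE 0.16, adjusted p = 0.00103, edgeR). The libraries overlapped in none of the lines, as for 61.3% of genes in C4-2, 55.9% in C4-2B, 65.6% in DU145 and 54.6% in 22Rv1.

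IGF1 fell to 20.4 and 14.1 CPM in C4-2 (-1.07, SE 0.15, adjusted p = 1.01e-05, edgeR) and to 9.52 and 11.7 CPM in 22Rv1 (-1.28, SE 0.16, adjusted p = 3.02e-06, edgeR). In C4-2B it rose to 46.2 and 51.8 CPM (0.43, SE 0.13, adjusted p = 0.0284, edgeR), a call lost with scaling by library size (0.0626), without a filter (0.0843), without mono-culture replicate 1 (0.0663) or 3 (0.120), and without RANKL mono-culture replicate 1 (0.0538) or 2 (0.291). The sign in C4-2B was thus opposite to that in its parent line.

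IRS1 rose to 11.8 and 8.75 CPM in C4-2 (1.13, SE 0.19, adjusted p = 0.000121, edgeR), to 13.8 and 15.4 CPM in DU145 (2.47-fold, adjusted p = 3.17e-06, edgeR) and to 13.5 and 12.8 CPM in 22Rv1 (1.18, SE 0.19, adjusted p = 5.87e-05, edgeR). In C4-2B, where IRS1 was already highest in mono-culture, it measured 10.8 and 14.1 CPM (0.38, adjusted p = 0.163, edgeR). The 4 lines thus lay between 8.75 and 15.4 CPM with RANKL, against 4.62 to 10.9 CPM without. IRS2 rose in 22Rv1 (26.9 and 29.2 against 20.5 to 20.8 CPM; 0.47, SE 0.12, adjusted p = 0.00579, edgeR), a call lost without RANKL mono-culture replicate 2 (0.0924).

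The RANKL count depended on which libraries entered the fit. With the 20 mono-cultures alone, 18 of 32 passed. The 7 added were IGFBP2 in C4-2B (-0.39 with the mono-cultures alone), DU145 (-0.47) and 22Rv1 (-0.28), IRS1 in C4-2B (0.39), IRS2 in DU145 (-0.27), IGFBP6 in DU145 (0.60) and short IGF1R transcripts in C4-2 (0.82). Calls over all genes rose in that fit too. Of 13433 genes, 2028 were higher and 1966 lower in C4-2, and 1716 and 1770 in C4-2B. The numbers were 2927 and 2984 in DU145, and 2094 and 1833 in 22Rv1. The fit of all 36 samples, with 13454 genes, gave 1233 and 1233 in C4-2, and 817 and 1120 in C4-2B. It gave 2271 and 2095 in DU145, and 1197 and 1191 in 22Rv1. IGFBP6 in DU145 measured 56.2 and 49.8 CPM with RANKL against 36.2 to 38.3 CPM without (adjusted p = 0.0657 in the fit of all 36 samples). In the test of any difference between lines, IGFBP3 (adjusted p = 1.59e-09), IGF1 (1.16e-06), IRS2 (0.0136) and IRS1 (0.0206) passed, or 4 of 8 (background 32.6%), with IRS2 again in the fit through the LPCa lines only. DU145 held 0.914 to 11.5 counts of IGF1 in these cultures, so IGF1 and IRS2 are given here as a description.

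Co-culture with RAW264.7 cells addressed osteoclast precursors, with RANKL in both arms. None of the 32 results passed in edgeR (0 also by DESeq2, and 4 at an unadjusted p under 0.05), beside backgrounds of 0.0174% in C4-2, 0.139% in C4-2B, 0.0260% in DU145 and 0.00868% in 22Rv1, and 6.61%, 6.39%, 6.39% and 6.26% at the unadjusted threshold. Over all lines the background was 0.0477%. IGFBP3 measured 182 and 159 CPM in C4-2 with RAW264.7 cells against 222 and 162 without, and 901 and 679 against 663 and 852 CPM in 22Rv1. In both lines the libraries overlapped. IGF1 in C4-2B measured 40.2 and 36.8 CPM against 46.2 and 51.8 (-0.34, SE 0.15, adjusted p = 0.767, edgeR). IGFBP2 in C4-2B measured 162 and 150 against 135 and 147 CPM (0.16, adjusted p = 0.751, edgeR). Short IGF1R transcripts measured 7.43 and 4.85 against 12.6 and 12.3 CPM in C4-2 (-1.01, adjusted p = 0.359) and 1.12 and 2.18 against 0.287 and 0.550 CPM in 22Rv1 (adjusted p = 0.640). Both results were past the study's thresholds, and no other was (background 0.557%). In this fit IGF1R reached 100 counts in C4-2 and C4-2B only, and its 22Rv1 libraries held 12.7 and 20.9 counts against 2.90 and 6.06, the lowest under 3 counts, so no fold is given there. No member passed the test of any difference between lines (smallest adjusted p = 0.372; background 0.0347%; 1 at an unadjusted p under 0.05). The 10 macrophage markers, 1 to 4 of them at 0, summed to 11.5 to 67.3 CPM with RAW264.7 cells and 13.1 to 67.0 CPM without. RAW264.7 is a mouse line, so human markers report on it only through reads that match both species.

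**Figure D5:**
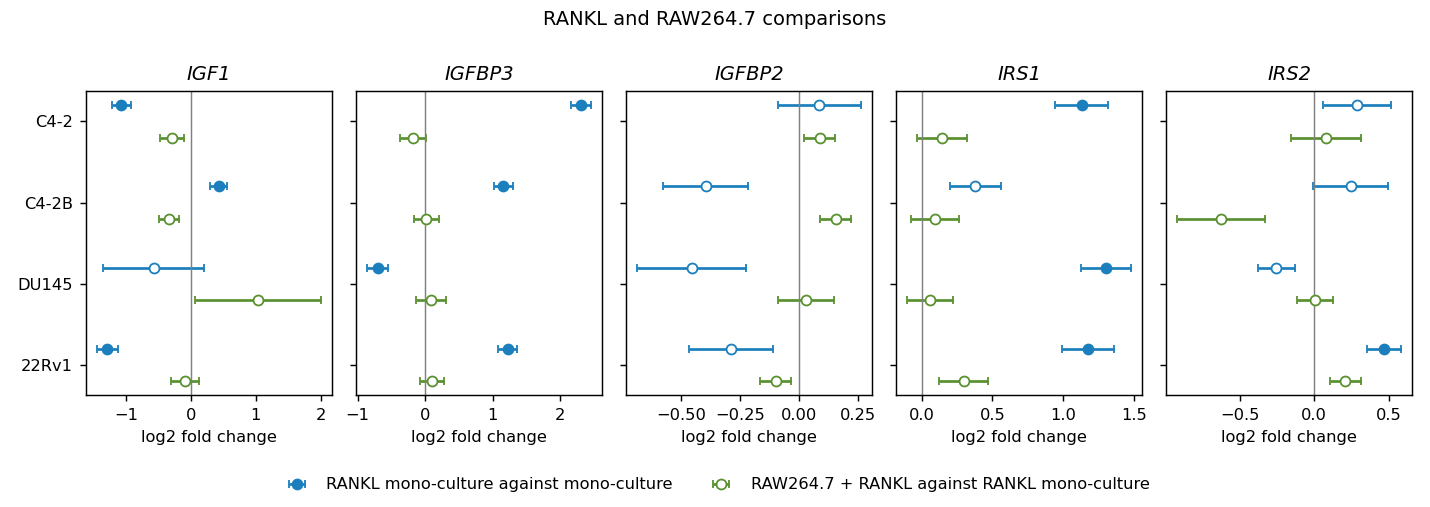
Log2 fold change (x axis, with its standard error) of IGF1, IGFBP3, IGFBP2, IRS1 and IRS2 for RANKL mono-culture against mono-culture and for RAW264.7 co-culture with RANKL against RANKL mono-culture, by line (y axis). Filled points have an adjusted p under 0.05, 11 of them in the first comparison and 0 in the second, and the DU145 points for IGF1 rest on levels at or under 0.568 CPM.

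The wider IGF pathway was read from lists of 57 other genes, of which 48 passed the filter (44 in the RAW264.7 comparison). With MG63 cells 4 passed in C4-2 (1 higher, 3 lower), 6 in C4-2B (1 and 5), 17 in DU145 (5 and 12) and 14 in 22Rv1 (4 and 10), beside backgrounds of 10.1%, 7.41%, 30.5% and 20.4%. Their median log2 fold changes were 0.03, 0.02, -0.20 and -0.09, beside -0.01, -0.00, -0.06 and 0.00 for all genes. Of the 24 PI3K/AKT genes, none passed in C4-2 or C4-2B, 7 passed in DU145 (2 higher; background 30.5%) and 4 in 22Rv1 (1 higher; 20.4%). TXNIP, a FOXO target that restrains glucose uptake, was lower in all 4 lines: by 1.17 in C4-2 (15.0 and 15.6 against 36.8 to 37.8 CPM), 1.17 in C4-2B, 2.99 in DU145 and 0.89 in 22Rv1 on the log2 scale, and against the RANKL control by 1.43, 1.23, 1.47 and 0.61 in the same order. In DU145 it was lower by 3.94 without MG63 replicate 1 and by 2.51 without replicate 2. STC2, a stanniocalcin that inhibits the protease PAPP-A and so the cleavage of binding proteins, was lower in C4-2 (-0.97, adjusted p = 5.37e-06, edgeR), 22Rv1 (-0.98, adjusted p = 1.78e-05, edgeR) and C4-2B (-0.49, adjusted p = 0.00283, edgeR), with 0.13 in DU145 (adjusted p = 0.272). Against the RANKL control STC2 gave -0.22 in C4-2 and 0.24 in 22Rv1 (adjusted p = 0.207 and 0.404), and it was higher in C4-2B (0.45, adjusted p = 0.0171) and DU145 (1.31, adjusted p = 3.91e-06). Its relative STC1 was lower in C4-2B (-1.61, adjusted p = 0.00528), with -0.03 against the RANKL control, under which STC1 was lower in DU145 (-0.87, adjusted p = 0.0255; 0.32, adjusted p = 0.316, against mono-culture, or -0.16 without DU145 MG63 replicate 1 and 0.67 without replicate 2). STC2 in DU145 gave 0.16 and 0.094 against mono-culture without those replicates. STC1 did not pass in C4-2 (-0.77, adjusted p = 0.150, edgeR) or 22Rv1 (0.99, adjusted p = 0.191, edgeR). Against the RANKL control STC1 gave -0.44 in C4-2 (adjusted p = 0.611, edgeR) and 2.05 in 22Rv1 (0.0955).

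The remaining genes named by the rule were INPP4B and KLF6 in 22Rv1, BCL6 in C4-2, CCNG2 in C4-2B, and SESN1 and PIK3IP1 in DU145, and their other lines are given beside them. The transcription factor KLF6 was lower in 22Rv1 (-0.94, adjusted p = 0.0126, or -1.46 with adjusted p = 0.0109 against the RANKL control). In DU145 KLF6 was higher (0.65, adjusted p = 0.0106, edgeR), with 1.06 without MG63 replicate 1, 0.10 without replicate 2 and -0.001 against the RANKL control. KLF6 did not pass in C4-2 (-0.29, adjusted p = 0.585, edgeR) or C4-2B (-0.55, adjusted p = 0.280, edgeR). Against the RANKL control those lines gave -0.71 (adjusted p = 0.305, edgeR) and -1.16 (0.0929). Whether KLF6 passed in C4-2B depended on the DU145 MG63 libraries, because all groups of the fit share an estimate of spread. The cyclin gene CCNG2 was lower in C4-2B (-0.69, adjusted p = 0.00124), 22Rv1 (-0.93, adjusted p = 7.99e-05) and DU145 (-0.52, adjusted p = 0.00672), the last with -0.62 without replicate 1 and -0.43 without replicate 2 (adjusted p = 0.103). Against the RANKL control CCNG2 gave -0.88 in 22Rv1 (adjusted p = 0.0170), -0.07 in C4-2B (0.948) and 0.18 in DU145 (0.535). In C4-2 CCNG2 did not pass (-0.21, adjusted p = 0.267, edgeR, or -0.08 with adjusted p = 0.912 against the RANKL control). The transcriptional repressor BCL6 was higher in C4-2 (0.54), C4-2B (0.35) and 22Rv1 (0.43), and against the RANKL control in C4-2 (1.16, adjusted p = 8.65e-05), C4-2B (0.54, adjusted p = 0.0192) and DU145 (0.78, adjusted p = 0.00111). In 22Rv1 that control gave BCL6 0.33 (adjusted p = 0.0986), and DU145 against mono-culture gave -0.074 (0.545), -0.24 without replicate 1 (0.0494) and 0.069 without replicate 2 (0.676). SESN1, a sestrin, was lower in DU145 (-1.07) and 22Rv1 (-0.65, adjusted p = 0.00259), but against the RANKL control gave -0.57 (adjusted p = 0.0769) and -0.088 (0.826). The PI3K inhibitor PIK3IP1 was lower in DU145 (-0.91) and did not pass in the other 3 lines. Without DU145 MG63 replicate 1, SESN1 gave -1.50 (adjusted p = 0.000172) and PIK3IP1 -1.03 (0.00981). Without replicate 2 they gave -0.79 (0.0235) and -0.80 (0.0649). The phosphatase INPP4B was lower in 22Rv1 (-1.21, adjusted p = 0.0137), with -0.87 in DU145 (0.127), -2.02 there without replicate 1 (0.0148) and -0.32 without replicate 2 (0.700). In C4-2 and C4-2B SESN1 gave -0.17 and -0.16 (adjusted p = 0.447 and 0.526, edgeR). INPP4B gave -0.41 and -0.35 in those lines (adjusted p = 0.433 and 0.599, edgeR). INPP4B and PIK3IP1 did not pass the filter of the fit with the RANKL control.

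The DU145 counts rest on libraries that stand apart from each other, and the count over all lines changed when either was left out. With both in the fit 41 pathway results passed (background 17.1%). With RANKL in mono-culture 9 passed in C4-2, 8 in C4-2B, 23 in DU145 and 11 in 22Rv1 (51 in all), beside backgrounds of 18.3%, 14.4%, 32.5% and 17.7%. With RAW264.7 cells 0 passed in edgeR; 1 passed by DESeq2, GRB10 in DU145 (-0.87, adjusted p = 0.0395), named after its value was seen.

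Genes whose pattern was most like that of the members that passed most often were ranked by Pearson r over 16 group means, each line centred on its own mean, among 13453 genes. For IGFBP3, which passed in 8 of 12 culture comparisons, these were TMSB4X (0.888), FAM89B (0.882) and H2AC18 (0.875). For IGF1 (5 of 12) they were MYBPC1 (0.902), PARPBP (0.889) and NIT1 (0.887), and for IRS1 (3 of 12) VEPH1 (0.943), FBXW5 (0.921) and CAPN1 (0.919). IRS2 passed in 3 of 12 too, and IRS1 was taken for its larger mean absolute log2 fold change (0.50 against 0.35). The points share the lines and the difference in depth between the plain mono-cultures and the rest, and the maximum over so many genes is high by selection.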

How the data were processed

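RNA-seq of 36 libraries of human PCa cell lines was analysed (poly-A selected, strand-specific). The authors quantified reads with kallisto, and the deposited values are estimated counts per transcript, not normalized across samples; the submitters' processing notes name FastQC, kallisto and hg19. The 159837 transcripts, of which 95.4% were found in GENCODE 29, were summed by symbol to 27852 genes, and 2491 lines of repeated transcripts, identical in value, were used a single time. Lines without a symbol held 0.526 to 0.764% of a library's counts and stayed out of the tests. CPM are counts scaled to a library total of 1000000, and TPM also divide by GENCODE 29 transcript length.

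Sums were rounded and fitted with edgeR 4.0.16 in R 4.3.3 (quasi-likelihood, TMM), with 1 mean per line and culture, over genes that reached 100 counts in 1 or more of the libraries fitted. The fits held 20 cultures without RANKL (13437 genes), 16 with RANKL (11525) or all 36 (13454). Benjamini-Hochberg adjustment ran over all genes of a fit, and an adjusted p under 0.05 passed. Standard errors were derived by dividing each log2 fold change by the root of its F statistic. Alternatives were DESeq2 1.42.0, other scaling, no filter, thinned mono-cultures, another control, 1 library left out, and the study's thresholds (fold over 2, unadjusted p under 0.05). The scripts were tested on simulated data.

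A level at or under 3 counts is a floor. Groups came from the labels, which do not say that replicates were separate cultures, so p-values measure only the spread between these samples. No 2 replicates agreed within sampling noise. Replicate numbers showed no pairing of the samples, on few independent values. Depth, given with the results, sets the counting precision. The 10 members and the pathway lists were chosen with earlier results of these data known. All 10 are named; up to 3 other pathway genes per co-culture comparison are named by the largest passing change, and up to 3 genes most like a member by correlation.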

Additional observations from a re-analysis of the deposited data

Results flagged for a closer look

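The MG63 effect differed between BPCa and LPCa for IGFBP3 (0.909 on the log2 scale) and for IRS2 (-0.971), each by a test of the difference itself in edgeR. IRS2 entered the fit only through the LPCa lines, and its BPCa libraries in these cultures held at most 52.4 counts, so its value is a description here and in the tests below. IGFBP3 rose in C4-2, C4-2B and DU145 and fell in 22Rv1, and the C4-2B and DU145 calls were lost under some alternatives. Against the RANKL mono-cultures the difference between phenotypes had the opposite sign (-0.58). Under that control the sign turned in C4-2 and C4-2B and stayed the same in DU145 and 22Rv1.

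Across the 4 lines, the MG63 effect differed for IGFBP3 (adjusted p = 2.04e-06, edgeR), IGF1 (0.00319) and IRS2 (0.0127). The RANKL effect in mono-culture differed between lines for IGFBP3 (adjusted p = 1.59e-09, edgeR), IGF1 (1.16e-06), IRS2 (0.0136) and IRS1 (0.0206). IGF1 entered the fits through C4-2, C4-2B and 22Rv1, and the DU145 libraries of these cultures held at most 11.5 counts of it, so its values across lines are a description as well. These tests of any difference were chosen after seeing the data, and the MG63 and RANKL effects share the plain mono-cultures as control. Groups of 2 or 3 libraries were too small to test for a single library far from the others.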

How the results depend on the processing

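At the study's thresholds 1 of 32 MG63 results passed in place of 9, 2 of 32 RAW264.7 results in place of 0, and 0 of 8 differences between phenotypes in place of 2. For RANKL in mono-culture 18 passed in place of 11 with the 20 mono-cultures alone. Other pathway genes numbered 25 in place of 41 with the RANKL control, 79 in place of 51 for RANKL with the mono-cultures alone, and 1 in place of 0 for RAW264.7 cells by DESeq2. Calls over all genes moved in the same directions. With the RANKL control they came to 4.70%, 3.03%, 22.8% and 7.70% in C4-2, C4-2B, DU145 and 22Rv1. They were 10.1%, 7.41%, 30.5% and 20.4% against plain mono-culture. For RANKL with the mono-cultures alone they rose in each line, as given with those results. In DU145 with RAW264.7 cells DESeq2 called 4 genes higher and 7 lower, against 1 and 2 in edgeR. With 1 library left out, members passing ranged from 7 to 11 for MG63, 10 to 18 for RANKL, 0 to 0 for RAW264.7, 34 to 38 (35 with all libraries) for pairs of lines and 2 to 3 for the difference between phenotypes; pathway genes ranged from 34 to 79 for MG63, 43 to 70 for RANKL and 0 to 0 for RAW264.7.

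Among results on the 8 members tested that were past the threshold under either control, the sign turned against the RANKL control for IGFBP3 in C4-2 (-1.67) and C4-2B (-0.73), for IGF1 in 22Rv1 (0.46), for IRS1 in DU145 (-1.03) and for IGFBP3 between phenotypes (-0.58). Among those past it under neither, it turned within single lines for IRS1 in C4-2 (-0.69), C4-2B (-0.06) and 22Rv1 (-0.75), IGFBP2 in C4-2B and 22Rv1, IRS2 in C4-2 and IGFBP6 in 22Rv1. Differences between phenotypes past the threshold under neither control are not listed. IGFBP2 in DU145 (0.82) ranged from -0.081 without MG63 replicate 2 to 1.39 without replicate 1. The cause was not tested. Of 57 calls on single members, DESeq2, its size factors in edgeR and the replicate block each left all 57 on their side of the threshold.

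The replicate number as a block gave 9, 0, 11, 35 and 2 members, and 44, 0 and 46 pathway genes for MG63, RAW264.7 and RANKL. Same-numbered samples showed no shared deviation (mean r of -0.0329, 0.0181 and 0.0186 over 8 pairs each). The pairs of a line are not independent, because the deviations of 2 libraries from their mean mirror each other. Each line thus gave the same r for both numbers between RANKL mono-culture and RAW264.7 co-culture. Scaling by library size moved the median of all genes by -0.11 in C4-2 and 22Rv1 with MG63 cells and -0.10 in DU145 with RANKL, and the share of higher calls in C4-2 with MG63 cells from 52.5% to 22.1%, in 22Rv1 from 55.0% to 28.4% and in DU145 with RANKL from 52.0% to 33.7%. Members under 100 counts, such as IRS2 in BPCa, have wide errors at this depth.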

Other observations

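IGF1 counts were divided differently among transcripts in the lines, over all cultures of each. The 1097-base transcript ENST00000307046 held 54.7% of IGF1 counts in C4-2, 63.7% in C4-2B and 25.0% in 22Rv1. The 7359-base transcript ENST00000337514 held 31.1%, 21.3% and 60.1%. These shares are estimates by the quantifier among transcripts that overlap, and they were not tested.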
